A study of Mus musculus with 6 samples.

Results

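Neuropeptide precursors, granins and the enzymes that process them were examined as a group of 36 named genes, chosen by symbol, of which 35 were measured among 18193 genes. Pcsk2 was not analysed here. Where a gene had several probe sets with its symbol alone, the one brightest on average across the 6 arrays was used. Values are log2 signals from Affymetrix arrays. The tissue was the subiculum and retrosplenial cortex of C57BL/6 mice on postnatal day 1, from D6/Zbtb20S transgenic animals and from wildtype littermates, with 3 arrays per genotype. Each array held RNA pooled from 7 animals, and whether pools of one genotype came from separate litters is not given in the sources used here, so the p-values describe variation among these pools only. In the transgenic line the short form of Zbtb20, a zinc finger repressor of hippocampal pyramidal neurons, is placed under D6, a regulatory element active in developing pyramidal neurons of cortex and hippocampus, and the series' design text describes the transgenic areas as transformed towards CA1.

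Neuropeptides are made as precursor proteins that enter the secretory pathway, are sorted with granins into dense core vesicles and are cut at pairs of basic residues by prohormone convertases. Carboxypeptidase E then trims the basic residues, peptidylglycine alpha-amidating monooxygenase amidates the end of many peptides, and release follows fusion of the vesicle with the cell membrane. In cortex and hippocampus several precursors, such as Sst, Npy and Vip, are best known from GABAergic interneurons, while others, such as Nts, Grp and Adcyap1, are known from groups of excitatory neurons.

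Wildtype replicates 1 and 3 departed from the other arrays in opposite directions on control probe sets, and wildtype replicate 3 also on Zbtb20. Zbtb20 was read by 9 probe sets, of which 1 passed the test, with log2 signals of 8.88, 9.10 and 8.94 in D6/Zbtb20S tissue, against 6.44, 5.84 and 7.64 in wildtype tissue (log2 difference 2.33 ± 0.37 standard error, limma adjusted p = 0.00904 over all probe sets). The brightest set averaged 8.21 in D6/Zbtb20S and 8.34 in wildtype tissue, a difference of -0.14 (limma adjusted p = 0.825 over all probe sets). Over the sets that did not pass, the log2 difference ran from -0.37 to 0.85, so its sign varied. On all 9 probe sets wildtype replicate 3 was the highest wildtype array. The 3'-minus-5' log2 signal of the actin control was 0.80 to 0.91 in the transgenic arrays, against 0.53, 0.88 and 1.31 in wildtype replicates 1, 2 and 3. For the Gapdh control it was -0.02 to 0.00 in the transgenic arrays, against -0.33, -0.03 and 0.30 in wildtype replicates 1, 2 and 3. Correlations between arrays over all genes were 0.9961 to 0.9972 within D6/Zbtb20S, 0.9943 to 0.9967 within wildtype and 0.9884 to 0.9914 between the genotypes. All 6 measured markers of excitatory cortical neurons had means above the array median in both genotypes. On wildtype replicate 1, Slc17a7 read 3.74, under that array's median of 3.83.

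The transgenic tissue had more Scg2, Cck, Penk and Pcsk1 mRNA than wildtype tissue and less Grp, Nts, Vgf, Adcyap1, Gal and Chgb. The sizes ran from an 8.17-fold lower level of Grp to a 6.85-fold higher level of Scg2. In limma's test with Benjamini-Hochberg adjustment over all genes, at an adjusted p under 0.05, 10 of the 35 genes passed, which is 28.6%, against 7.71% of all genes tested. Higher in the transgenic tissue were 4 of 35 (11.4%), against 4.06% of all genes, and lower were 6 of 35 (17.1%), against 3.64%. Past the threshold and at least 2-fold were 5 of the 35, namely Scg2 higher and Grp, Nts, Vgf and Adcyap1 lower, against 1.45% of all genes. The arrays of the genotypes did not overlap for 16 of the 35 (45.7%), against 26.1% of all genes. The genes were chosen with earlier results of these data known, so these shares are descriptive and do not test an excess. The median log2 difference, D6/Zbtb20S minus wildtype, was -0.08 over the 35 genes and -0.02 over all genes. In pooled tissue, fewer cells of a type and less RNA per cell cannot be told apart.

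**Figure D1:**
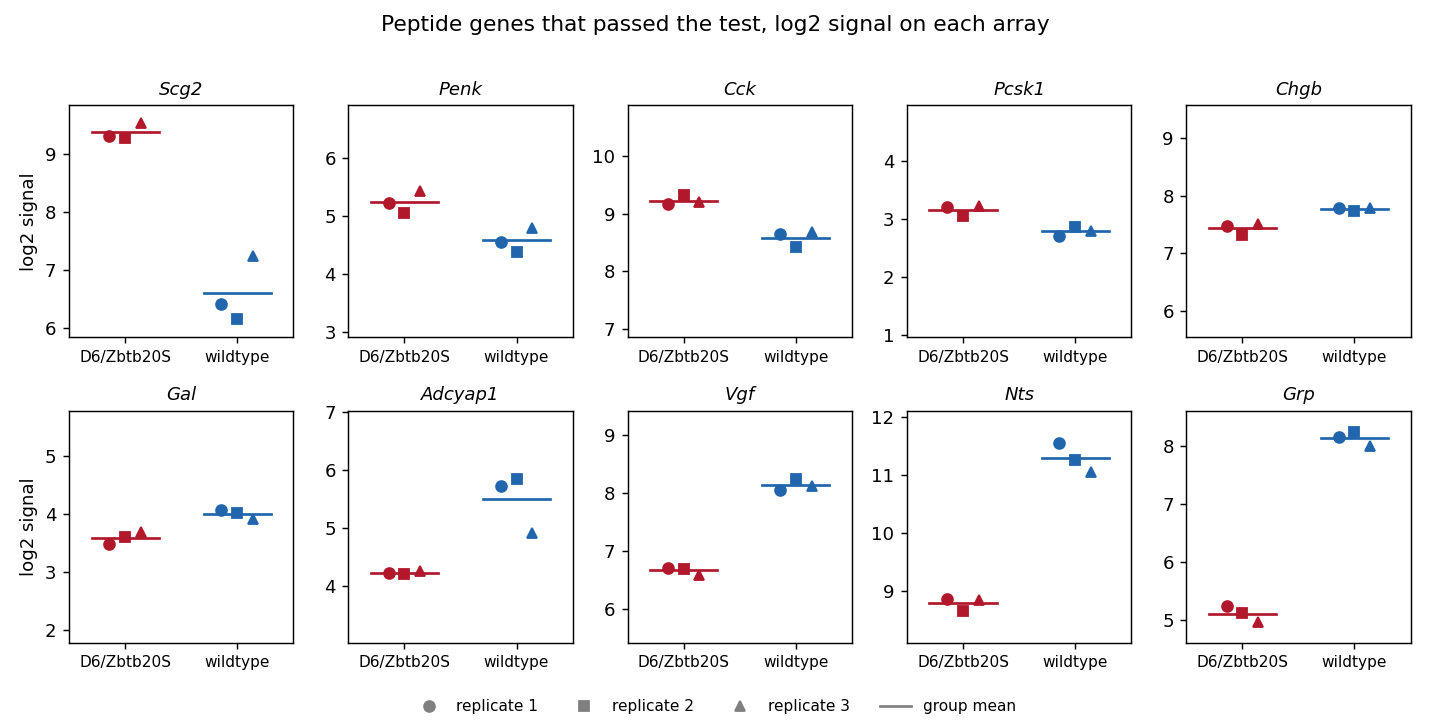
Log2 signal on each array for the 10 peptide genes that passed the test, with D6/Zbtb20S arrays (red) left of wildtype arrays (blue), marker shape for the replicate number and a line at the group mean; every panel spans 4 log2 units. No panel shows overlap between the genotypes, and in Scg2 and Adcyap1 wildtype replicate 3 lies closer to the transgenic arrays than the other wildtype arrays do.

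Among the 10 peptide genes that passed, wildtype replicate 3 was the wildtype array nearest to the transgenic mean for 7, and among all 1402 genes that passed it was so for 710 (50.6%). Without wildtype replicate 3, again 10 of the 35 genes passed (8.45% of all genes did): Chgb dropped out (adjusted p = 0.0731), Scg5 came in (log2 difference -0.66, adjusted p = 0.0184) and the other 9 stayed. Without wildtype replicate 1, 8 of the 35 passed (6.49% of all genes did): Chgb (adjusted p = 0.081), Gal (0.0602) and Pcsk1 (0.0738) dropped out and Cartpt came in (0.0314). The part of the differences between wildtype arrays in the other results was not tested.

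Promoter sequence was set beside the results, since many peptide genes are known to carry a cAMP response element, the binding site of the activity-regulated factor CREB. RefSeq promoter sequences (GRCm38.p6) matched 29 of the 35 genes; Vgf, Grp, Penk, Pnoc, Crh and Cpe had none. The letters TGACGTCA, which read the same on both strands, stood in the 250 bases before the start of 6 of these 29 genes (20.7%) and of 478 of 27025 genes in the table (1.77%). The 6 were Scg2, Pcsk1, Chgb, Sst, Cartpt and Ucn. They comprised 3 of the 7 genes with a sequence that passed the expression test, of which Scg2 and Pcsk1 were higher and Chgb lower in transgenic tissue, and 3 of the 22 that did not pass. The 120 bases before the start of each follow, 5′ to 3′ on the gene's strand, with the element in capitals. They lie at chr1:79440027-79440146 (minus strand), chr13:75089737-75089856 (plus strand), chr2:132781522-132781641 (plus strand), chr16:23890845-23890964 (minus strand), chr13:99900684-99900803 (minus strand) and chr5:31138896-31139015 (minus strand).
Scg2: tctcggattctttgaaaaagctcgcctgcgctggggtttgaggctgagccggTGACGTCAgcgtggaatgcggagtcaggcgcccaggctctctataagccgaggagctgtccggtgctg
Pcsk1: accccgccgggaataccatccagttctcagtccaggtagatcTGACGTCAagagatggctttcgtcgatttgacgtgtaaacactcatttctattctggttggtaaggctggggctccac
Chgb: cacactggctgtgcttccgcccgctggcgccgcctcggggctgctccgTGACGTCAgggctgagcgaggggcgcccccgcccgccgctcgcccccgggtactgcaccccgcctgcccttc
Sst: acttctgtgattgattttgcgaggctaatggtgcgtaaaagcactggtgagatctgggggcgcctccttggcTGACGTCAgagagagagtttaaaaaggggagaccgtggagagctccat
Cartpt: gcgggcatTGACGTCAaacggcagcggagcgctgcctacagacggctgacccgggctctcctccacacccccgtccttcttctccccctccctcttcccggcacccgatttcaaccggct
Ucn: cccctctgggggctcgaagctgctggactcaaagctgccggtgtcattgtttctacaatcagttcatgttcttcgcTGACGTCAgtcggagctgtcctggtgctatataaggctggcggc
The element began 68 bases before the start in Scg2, 78 in Pcsk1, 72 in Chgb, 48 in Sst, 112 in Cartpt and 44 in Ucn.

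Other letters were searched on both strands in the same windows: TGCGTCA, a variant of the element known from peptide genes, and TGACTCA, the binding site of AP-1 factors. Across the 3 searches each of the 12 genes with a match had 1 match, so none overlapped. The variant stood before 3 of the 29 genes, Cck, Cort and Tac1 (10.3%), and before 2% of all genes. The AP-1 letters stood before 3 of the 29, Nts, Pcsk1n and Nmu (10.3%), and before 5.16% of all genes. The windows before Cck and Nts are shown because both genes passed the test, Cck higher and Nts lower in transgenic tissue, at chr9:121495695-121495814 (minus strand) and chr10:102490419-102490638 (minus strand). In Nts the match is on the opposite strand, so its capitals read as the reverse complement.
Cck: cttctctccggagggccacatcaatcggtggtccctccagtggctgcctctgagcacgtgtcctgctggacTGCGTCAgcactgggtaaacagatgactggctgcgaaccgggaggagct
Nts: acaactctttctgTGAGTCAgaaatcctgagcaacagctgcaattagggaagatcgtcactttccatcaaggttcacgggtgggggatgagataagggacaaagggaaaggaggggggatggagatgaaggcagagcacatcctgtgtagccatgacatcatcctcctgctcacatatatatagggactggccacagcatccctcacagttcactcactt
These matches describe letters only.

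Among the granins, acidic proteins that drive the formation of dense core vesicles and are themselves cut into peptides, Scg2 and Vgf moved in opposite directions by more than 2-fold. Of 7 granin and granin-like genes, 1 rose, 2 fell and 4 did not pass (42.9% passed, against 7.71% of all genes), with a median log2 difference of -0.03. Scg2, the precursor of secretoneurin, read 9.32, 9.28 and 9.54 in D6/Zbtb20S tissue, against 6.41, 6.15 and 7.24 in wildtype tissue. All transgenic arrays lay above all wildtype arrays by more than 2 log2 units, and the transgenic arrays were closer together (SD 0.14 in transgenic and 0.57 in wildtype tissue, n = 3 each). The difference was 2.78 ± 0.23 (standard error, limma adjusted p = 7.8e-05), and 3.10 without wildtype replicate 3. With an ordinary linear model in place of limma's moderated variance, Scg2 missed the threshold (adjusted p = 0.0618).

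Vgf, a neurotrophin-inducible precursor of several bioactive peptides, read 6.71, 6.69 and 6.60 in D6/Zbtb20S tissue, against 8.05, 8.24 and 8.12 in wildtype tissue. The arrays of each genotype lay within 0.2 of one another. The difference was -1.47 ± 0.08 (2.77-fold lower, adjusted p = 1.2e-05), and Vgf kept its call in every alternative run. Chgb, chromogranin B, read 7.48, 7.33 and 7.50 in D6/Zbtb20S tissue, against 7.78, 7.74 and 7.79 in wildtype tissue. These groups did not overlap, but the difference was small (-0.33 ± 0.08, adjusted p = 0.0344). Chgb was not called in 5 of the 6 leave-one-out fits, that is all except the one without D6/Zbtb20S replicate 3 (adjusted p from 0.0489 to 0.128 over the 6), nor with the ordinary linear model (adjusted p = 0.104).

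The other granin-like genes did not pass. Scg5, the chaperone of the convertase Pcsk2, read 8.11, 8.31 and 8.46 in D6/Zbtb20S tissue, against 9.15, 8.76 and 8.41 in wildtype tissue, a difference of -0.48 ± 0.17 (adjusted p = 0.138). Its wildtype replicate 3 was below the highest transgenic array, while the other wildtype arrays were above all of them. For Scg3, which helps to sort other granins, the difference was 0.05 (95% interval -0.14 to 0.24). For Chga, chromogranin A, it was -0.03 (-0.20 to 0.15), and for Pcsk1n, which encodes the convertase inhibitor proSAAS, 0.01 (-0.22 to 0.24). These intervals leave out changes of the size seen in Vgf.

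**Figure D2:**
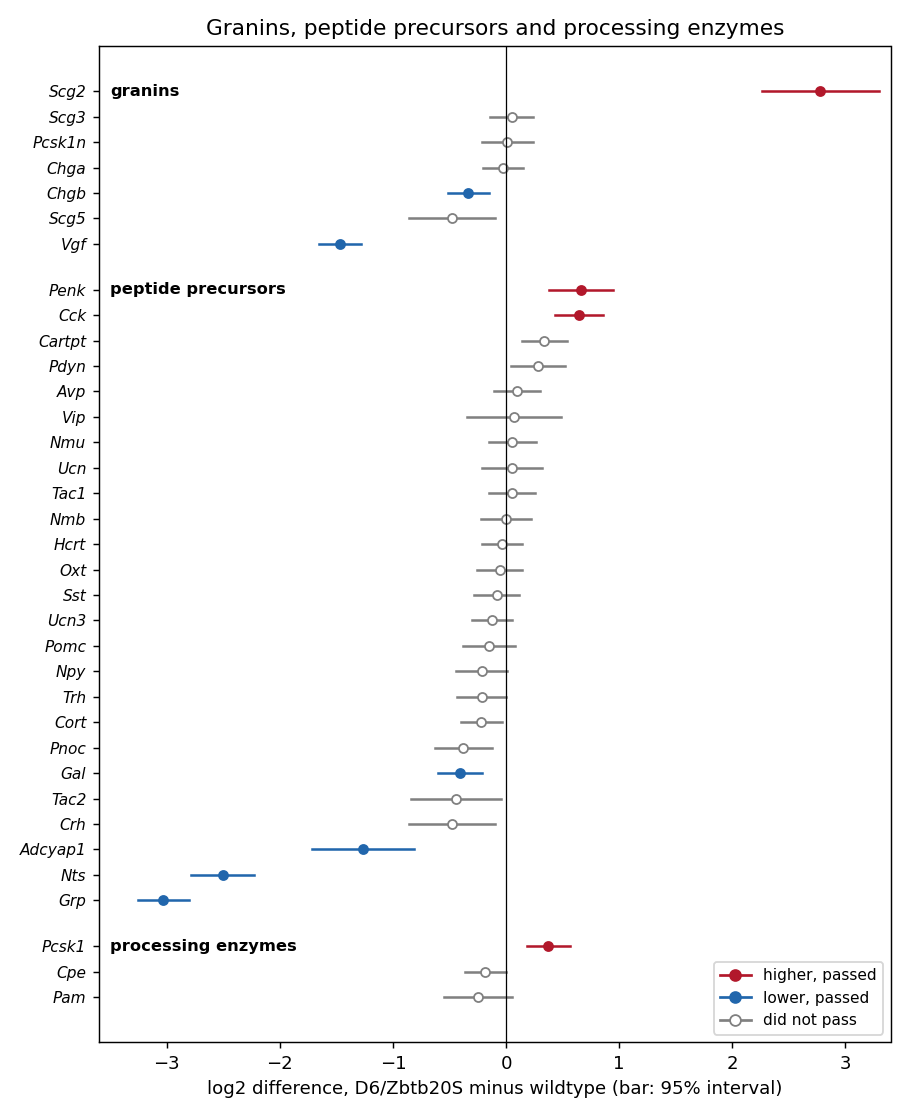
Log2 difference, D6/Zbtb20S minus wildtype, for the 35 measured genes by role, with 95% intervals from limma; filled red and blue points passed the test as higher and lower, open grey points did not. The points run from -3.03 (Grp) to 2.78 (Scg2), and the open points all lie within 0.5 of 0.

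Among the 25 peptide precursors 2 rose, 4 fell and 19 did not pass (24% passed, against 7.71% of all genes), with a median log2 difference of -0.08. The 3 largest differences, in Grp, Nts and Adcyap1, were lower levels in transgenic tissue. Grp, the precursor of gastrin-releasing peptide, read 5.24, 5.11 and 4.96 in D6/Zbtb20S tissue, against 8.15, 8.25 and 8.00 in wildtype tissue. The genotypes were separated by close to 3 log2 units with an SD of 0.14 in transgenic and 0.12 in wildtype arrays. The difference was -3.03 ± 0.10 (8.17-fold lower, adjusted p = 5.6e-07) and stayed between -3.10 and -2.96 in the leave-one-out fits.

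Nts, the precursor of neurotensin and neuromedin N and a known marker of subicular neurons, read 8.85, 8.65 and 8.84 in D6/Zbtb20S tissue, against 11.55, 11.25 and 11.05 in wildtype tissue. Every transgenic array was more than 2 log2 units below every wildtype array, and the transgenic level was still far above the array median. The difference was -2.51 ± 0.13 (5.68-fold lower, adjusted p = 5.7e-06). Like Grp and Vgf, Nts passed in all 14 alternatives.

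Adcyap1, the precursor of the pituitary adenylate cyclase-activating peptide, was measured by a pair of probe sets that agreed in direction. On the brighter set it read 4.22, 4.19 and 4.26 in D6/Zbtb20S tissue, against 5.72, 5.84 and 4.92 in wildtype tissue (-1.27 ± 0.20, 2.41-fold lower, adjusted p = 0.0041). Wildtype replicate 3 lay between the transgenic arrays and the other wildtype arrays, and without it the difference was -1.55. On the dimmer set it read 1.36, 1.32 and 1.14 in D6/Zbtb20S tissue, against 4.18, 5.19 and 4.74 in wildtype tissue. The groups did not overlap there either (adjusted p = 0.000112 over all probe sets, of which 5.52% passed). The transgenic readings on the dimmer set were far under the array medians of 3.83 to 3.97, so they are not taken as a measured level and no fold is given. Wildtype replicate 3 was not the lowest wildtype array on it. With the ordinary linear model Adcyap1 missed the threshold on the brighter set (adjusted p = 0.155), and with both sets averaged the difference was -2.35, a value that includes those dim readings.

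Gal, the galanin precursor, read 3.48, 3.60 and 3.69 in D6/Zbtb20S tissue, against 4.08, 4.01 and 3.92 in wildtype tissue. The groups did not overlap, the difference was -0.41 ± 0.09 (adjusted p = 0.0192), and the transgenic mean lay under the array median. Gal missed the threshold without D6/Zbtb20S replicate 1 or 2 or wildtype replicate 1 or 2 (adjusted p up to 0.0871), and with the ordinary linear model (adjusted p = 0.118).

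Cck, the cholecystokinin precursor of interneurons and pyramidal neurons, read 9.16, 9.32 and 9.20 in D6/Zbtb20S tissue, against 8.64, 8.42 and 8.68 in wildtype tissue. All transgenic arrays were above all wildtype arrays, by 0.65 ± 0.09 in the mean (1.57-fold higher, adjusted p = 0.00234). The call held whichever array was left out (adjusted p up to 0.0142). Penk, the precursor of the enkephalins, read 5.23, 5.06 and 5.44 in D6/Zbtb20S tissue, against 4.57, 4.39 and 4.79 in wildtype tissue. It was 1.58-fold higher (0.66 ± 0.13, adjusted p = 0.0107) without overlap, and missed the threshold without D6/Zbtb20S replicate 1 or wildtype replicate 2 (adjusted p = 0.0504 and 0.0515). With the ordinary linear model Cck had an adjusted p of 0.0808 and Penk of 0.167.

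The other opioid-family precursors did not pass. Pnoc, the nociceptin precursor, read 4.18, 4.13 and 4.46 in D6/Zbtb20S tissue, against 4.71, 4.46 and 4.74 in wildtype tissue, with no overlap although the highest transgenic and the lowest wildtype array both rounded to 4.46 (-0.38 ± 0.11, adjusted p = 0.0791). It passed after quantile normalization (adjusted p = 0.0306), with equal array medians (0.0349) and without D6/Zbtb20S replicate 3 (0.04). Pdyn, the dynorphin precursor, lay under the array median in both genotypes (difference 0.29, 95% interval 0.05 to 0.53, adjusted p = 0.16). Pomc, the precursor of melanocortins and beta-endorphin, had a difference of -0.15 (adjusted p = 0.468). On its other probe set, which lay under the array median in both genotypes, the difference was 0.21 (adjusted p = 0.277 over all probe sets). The sign thus differed between the sets, but the second reading is dim.

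Sst, Npy, Cort and Vip, which are known from cortical interneurons, did not pass, while Cck, described above, did. Sst, somatostatin, read 7.07, 6.97 and 7.24 in D6/Zbtb20S tissue, against 7.18, 7.15 and 7.19 in wildtype tissue, and the arrays overlapped. Its difference was -0.08 with a 95% interval of -0.28 to 0.12. Npy, neuropeptide Y, had a difference of -0.21 (-0.44 to 0.01), and Cort, the cortistatin precursor related to somatostatin, one of -0.22 (-0.40 to -0.03) with an adjusted p of 0.169. Cort passed with array weights (adjusted p = 0.0404). Vip, vasoactive intestinal peptide, differed by 0.07 (-0.34 to 0.49), and its sign turned in 3 of the 6 leave-one-out fits. Of 12 measured GABAergic markers 0 rose and 2 fell, Gad1, which encodes a GABA-synthesising enzyme (-0.60 ± 0.10, adjusted p = 0.0047), and Nxph1, which encodes a secreted neurexophilin (-0.55 ± 0.13, adjusted p = 0.032). Nxph1 was not called without D6/Zbtb20S replicate 1 or 3 or wildtype replicate 1 or 2 (adjusted p from 0.0702 to 0.135), and neither gene was with the ordinary linear model (adjusted p = 0.102 for Gad1 and 0.231 for Nxph1). In limma with all arrays 16.7% of the 12 markers passed, against 7.71% of all genes. With quantile normalization or array weights 3 of the 12 were lower, where 8.55% and 14.9% of all genes passed. At an unadjusted p under 0.05 in limma 0 of the 12 were higher and 4 lower. Of all 18193 genes 1926 were higher and 1768 lower at that level. The mean log2 level of this marker list was 5.38 to 5.54 in transgenic arrays and 5.64 to 5.65 in wildtype arrays, and its part in the peptide values was not tested.

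The tachykinins and the corticotropin-releasing family did not pass either. Tac1, the substance P precursor, differed by 0.05 (95% interval -0.15 to 0.25). It differed by -0.18 on its other probe set, which lay under the array median in both genotypes. Tac2, the neurokinin B precursor, read 3.16, 3.16 and 3.36 in D6/Zbtb20S tissue, against 3.75, 3.22 and 4.04 in wildtype tissue, under the array median in the mean of both genotypes (-0.44 ± 0.18, adjusted p = 0.196). Without wildtype replicate 2, the lowest wildtype array, Tac2 passed (adjusted p = 0.0165). Crh, corticotropin-releasing hormone, read 4.82, 4.71 and 4.65 in D6/Zbtb20S tissue, against 4.89, 5.06 and 5.65 in wildtype tissue, with wildtype replicate 3 highest (-0.48 ± 0.17, adjusted p = 0.139). Without wildtype replicate 3 the Crh difference was -0.25 (adjusted p = 0.18). The related urocortins had differences of 0.05 (Ucn) and -0.13 (Ucn3).

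The precursors known mainly from the hypothalamus had small differences. Cartpt, the precursor of cocaine- and amphetamine-regulated transcript peptides, read 2.81, 2.80 and 2.87 in D6/Zbtb20S tissue, against 2.62, 2.49 and 2.34 in wildtype tissue. These groups did not overlap, but both lay under the array median, and the difference of 0.34 ± 0.09 just missed the threshold (adjusted p = 0.0517). It passed with quantile normalization, array weights or the mean of probe sets, and without wildtype replicate 1 (adjusted p from 0.0142 to 0.0416). Trh, thyrotropin-releasing hormone, differed by -0.21, Avp, vasopressin, by 0.10, Oxt, oxytocin, by -0.06 and Hcrt, the orexin precursor, by -0.04, with adjusted p from 0.254 to 0.844. Trh passed with array weights (-0.34, adjusted p = 0.0307). Nmb, neuromedin B, and Nmu, neuromedin U, differed by less than 0.1. Oxt read 6.95 to 7.11 in transgenic and 7.01 to 7.22 in wildtype arrays, above the array medians. Of 8 measured hypothalamic markers 6 lay under the array median in both genotypes, 0 passed the test, and 0 had an unadjusted p under 0.05 in limma.

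Among the processing enzymes, Pcsk1, the prohormone convertase that makes the first cuts in many precursors, was higher in transgenic tissue. It read 3.20, 3.05 and 3.22 in D6/Zbtb20S tissue, against 2.70, 2.86 and 2.79 in wildtype tissue. The groups did not overlap (0.38 ± 0.08, adjusted p = 0.0249), but both means lay under the array median, and Pcsk1 was called in only 2 of the 6 leave-one-out fits, those without D6/Zbtb20S replicate 2 or wildtype replicate 3 (adjusted p up to 0.104 over the 6). With the ordinary linear model its adjusted p was 0.117. Cpe, which encodes carboxypeptidase E, read 11.10, 11.10 and 11.14 in D6/Zbtb20S tissue, against 11.18, 11.36 and 11.35 in wildtype tissue. The transgenic arrays were all lower, by 0.18 in the mean, without passing (adjusted p = 0.247). Its other probe set had a difference of -0.34 (adjusted p = 0.116 over all probe sets). Pam, the amidating enzyme, overlapped between genotypes (-0.25 ± 0.13, adjusted p = 0.349).

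**Figure D3:**
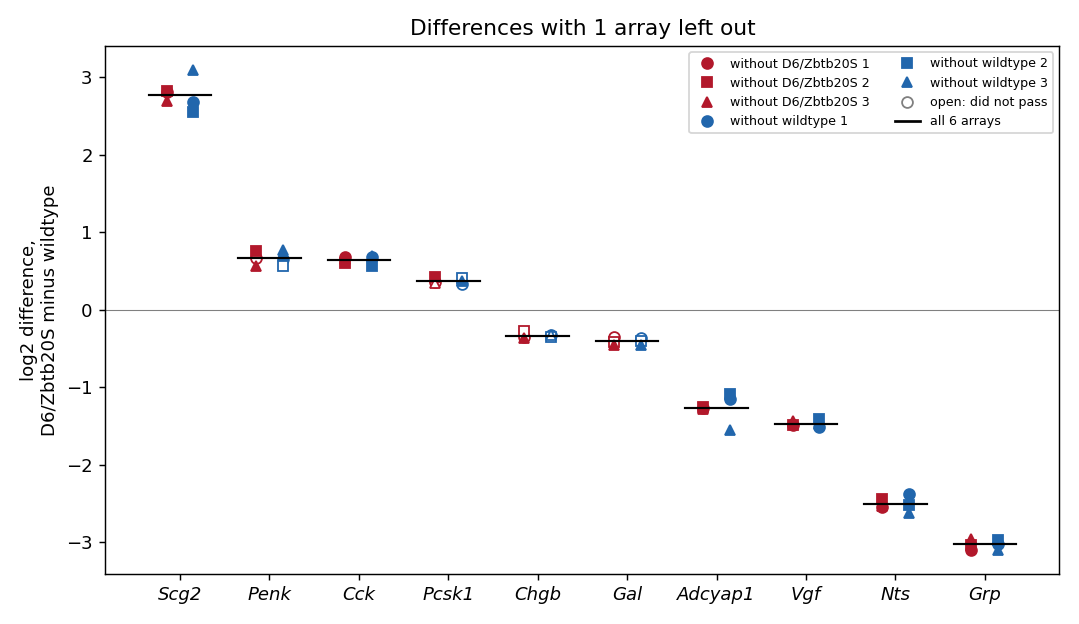
Log2 difference, D6/Zbtb20S minus wildtype, of the 10 genes that passed with all 6 arrays (black line) and with each array left out in turn (red for a D6/Zbtb20S array, blue for a wildtype array, open where the gene then missed the threshold). No difference changes sign; Grp, Nts, Vgf, Adcyap1, Scg2 and Cck have filled points only, and the largest shifts, in Scg2 and Adcyap1, follow wildtype replicate 3.

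The count of peptide genes that passed depended on the arrays. It was 6 (2 higher, 4 lower) without D6/Zbtb20S replicate 1, where 4.6% of all genes passed. In the other fits with 1 array left out it was between 7 and 10, where 4.27% to 8.45% of all genes passed. With the ordinary linear model 3 passed, Grp, Nts and Vgf, all lower, where 1.47% of all genes passed.

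Genes that act beside the peptides were counted from lists of related genes. Of 26 other neuropeptide precursors 1 rose, Nppc, the C-type natriuretic peptide precursor (0.37 ± 0.08, adjusted p = 0.0211), and 0 fell (3.85% passed, against 7.71% of all genes, median -0.06). At an unadjusted p under 0.05 in limma 0 were lower. However, 1 was called lower without wildtype replicate 3 (8.45% of all genes passed) and 1 with array weights (14.9%). Of the 26, 18 lay under the array median in both genotypes. Nppc was below the array median in both genotypes too, and was called in 1 of the 6 leave-one-out fits, the one without D6/Zbtb20S replicate 3 (adjusted p up to 0.0851 over the 6).

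Of 25 other enzymes that cut, modify or degrade peptides, 1 rose and 2 fell (12%, against 7.71% of all genes). Pcsk5, a convertase of the furin type, read 7.40, 7.65 and 7.46 in D6/Zbtb20S tissue, against 6.67, 6.85 and 6.92 in wildtype tissue (0.69 ± 0.10, adjusted p = 0.00224). Qpct, glutaminyl cyclase, which forms the blocked start of peptides such as neurotensin, read 4.38, 4.36 and 4.28 in D6/Zbtb20S tissue, against 5.12, 5.11 and 4.82 in wildtype tissue (-0.67 ± 0.10, adjusted p = 0.00248). Mme, neprilysin, which degrades enkephalins and other peptides outside cells, was 2.01-fold lower (-1.01 ± 0.13, adjusted p = 0.00137), with the transgenic mean under the array median.

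Of 49 genes for the making, docking and release of dense core vesicles, 1 rose and 7 fell (16.3%, against 7.71% of all genes, median -0.06). The count that fell was 5 to 7 with 1 array left out, where 4.27% to 8.45% of all genes passed in either direction. It was 9 with array weights (14.9% of all genes passed) and 2 with the ordinary linear model (1.47%). Snap25, a membrane fusion SNARE shared with synaptic vesicles, read 8.98, 8.97 and 8.92 in D6/Zbtb20S tissue, against 9.85, 10.06 and 10.05 in wildtype tissue (-1.03 ± 0.08, adjusted p = 7.3e-05). Transgenic Snap25 arrays were all lower by more than 0.8. Tbc1d5, a Rab GTPase-activating protein of endosomal trafficking (-1.23 ± 0.09), the active zone scaffolds Rims2 (-1.22 ± 0.11) and Rims1 (-0.76 ± 0.10), the small GTPase Rab3b (-0.77 ± 0.10), the dense core vesicle synaptotagmin Syt4 (-0.56 ± 0.12) and the fusion syntaxin Stx1a (-0.39 ± 0.10) also fell, and Rab3d rose (0.36 ± 0.08). The adjusted p of these 8 genes lay between 3.6e-05 and 0.0361. With probe sets averaged, Rims1 and Rab3d did not pass (adjusted p = 0.169 and 0.182). In leave-one-out fits Stx1a was called only without wildtype replicate 1, Rab3d only without D6/Zbtb20S replicate 2 or wildtype replicate 3, and Syt4 in all except those lacking D6/Zbtb20S replicate 1 or 3. The highest adjusted p over the 6 was 0.158 for Stx1a, 0.106 for Rab3d and 0.0809 for Syt4.

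Because several peptide genes are known to respond to neuronal activity, 23 activity-dependent genes were counted too, and they moved both ways. Of these, 4 rose and 4 fell (34.8%, against 7.71% of all genes, median -0.03). Egr2 (1.22 ± 0.21), the nuclear receptor Nr4a3 (0.89 ± 0.09), the activin subunit Inhba (0.75 ± 0.12) and the cAMP-responsive modulator Crem (0.53 ± 0.12) rose, with adjusted p from 0.000275 to 0.0233. Nr4a2 (-3.34 ± 0.13), the AP-1 factor Fosl2 (-2.85 ± 0.13), the phosphatase Dusp5 (-0.53 ± 0.09) and Nr4a1 (-0.50 ± 0.08) fell, with adjusted p from 1e-06 to 0.0079. With probe sets averaged, Nr4a3 and Crem did not pass (adjusted p = 0.0752 and 0.0837). Crem was called only without wildtype replicate 1 or 3 among the leave-one-out fits (adjusted p up to 0.092), and Egr2 lay under the array median in both genotypes.

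**Figure D4:**
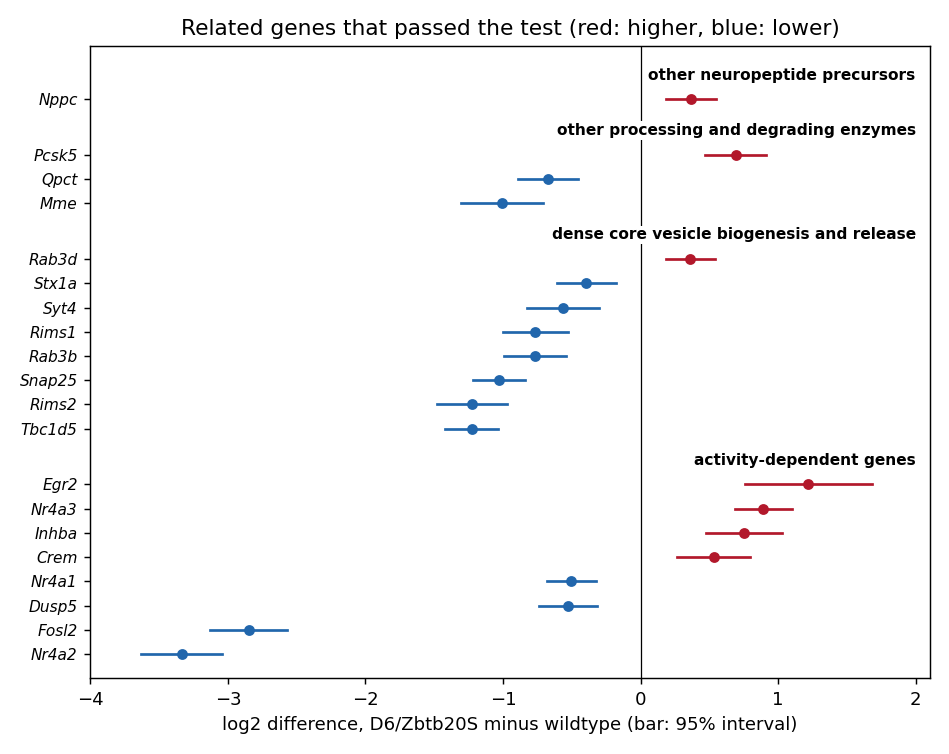
Log2 difference, D6/Zbtb20S minus wildtype, with 95% intervals, for the genes of 4 related lists that passed the test (red higher, blue lower). Vesicle genes lie mostly on the lower side, 7 of 8, and activity-dependent genes are split, 4 and 4.

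Markers of cell types moved beside the peptide genes. The share that passed was 50% for excitatory, 57.1% for oligodendrocyte lineage, 37.5% for microglial, 33.3% for striatal and 14.3% for endothelial markers. Over all genes 7.71% passed. Of 6 measured markers of excitatory cortical neurons, all with means above the array median, Neurod2 rose (1.12 ± 0.11) and Tbr1 (-1.41 ± 0.12) and Slc17a6 (-1.26 ± 0.17) fell. Slc17a6 was not called when its probe sets were averaged (adjusted p = 0.17). The mean log2 level of that list was 6.76 to 6.89 in transgenic and 6.98 to 7.21 in wildtype arrays. Of 7 oligodendrocyte lineage markers 4 fell (Olig1, Olig2, Mbp and Cnp), with list levels of 6.33 to 6.48 in transgenic and 6.73 to 6.97 in wildtype arrays, and of 8 microglial markers 3 rose (Cx3cr1, Tyrobp and Ctss), with levels of 5.72 to 6.04 in transgenic and 5.32 to 5.46 in wildtype arrays. In the striatal list, where Penk and Tac1 are also at home, 2 of 6 rose, Foxp1 and Ppp1r1b (the second not without D6/Zbtb20S replicate 1 or wildtype replicate 2, adjusted p = 0.0563 and 0.0537), and 4 of 6 lay under the array median in both genotypes, among them the dopamine receptors Drd1 and Drd2, which are named after their values were seen. The striatal list level was 4.40 to 4.53 in transgenic and 4.06 to 4.24 in wildtype arrays. Of 7 endothelial markers the glucose transporter Slc2a1 fell (-0.36 ± 0.08) and was called in 1 of the 6 leave-one-out fits, the one without wildtype replicate 1. The count of microglial markers called higher was 3 to 5 with 1 array left out, 5 without D6/Zbtb20S replicate 2 or wildtype replicate 3, and 0 with the ordinary linear model. Over all genes 4.27% to 8.45% passed with 1 array left out, and 1.47% with the ordinary linear model. None of the Cajal-Retzius, astrocyte and radial glia, thalamic or choroid plexus markers passed in limma with all arrays. Without wildtype replicate 3, 2 of 8 astrocyte and radial glia markers were higher, Gfap (0.77, adjusted p = 0.0316) and Aqp4 (0.61, adjusted p = 0.0117), both named after their values were seen. With array weights 1 Cajal-Retzius and 1 thalamic marker were called higher. The count of thalamic markers called higher was also 1 without D6/Zbtb20S replicate 2, with equal array medians and with dim probe sets left out. Over all genes 8.45% passed without wildtype replicate 3, 14.9% with array weights, 5.42% without D6/Zbtb20S replicate 2 and 8.32% with equal array medians. With dim probe sets left out, 11.9% of the genes kept passed. At an unadjusted p under 0.05 in limma, 1 of 7 Cajal-Retzius markers was higher and 2 lower, 1 of 8 astrocyte and radial glia markers was higher, 1 of 6 thalamic markers was higher and 1 lower, and 0 of 6 choroid plexus markers differed. For all 18193 genes the counts at that level were 1926 higher and 1768 lower. The part of these cell types in the peptide results was not tested.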

How the data were processed

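Affymetrix signals were deposited by the authors as log2 values, 1 for each probe set on every array. The submitters' processing notes list RMA and limma. The log2 scale was read from the range of the values. Any last scaling or centring of arrays is not given in the sources used here, and array medians were 3.83 to 3.97. With 3 arrays a genotype, precision is limited by their number.

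Of 45101 probe sets, 64 controls were left out, and 34945 of the remaining 45037 had 1 gene symbol in the platform annotation, giving 18193 genes. Probe sets with several symbols (932) or none (9160) named no gene. No filter on dim signals was used in the reported values. Differences, standard errors and 95% intervals were estimated under R 4.3.3 with version 3.58.1 of limma, using lmFit and eBayes without covariates, with p-values adjusted by Benjamini-Hochberg over all genes. Adjusted p-values named for a second probe set or for Zbtb20 are over all probe sets. The fit was tested on simulated data. Figures used matplotlib 3.10.9 in Python 3.11.15.

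The 36 genes and the 15 further lists were chosen with earlier results of these data known. All measured members were to be named, and of each further list the genes that passed. Alternatives comprised leave-one-out fits, a block for replicate number, quantile normalization, arrays shifted to equal medians, an intensity trend, array weights, averaging the probe sets of a gene, an ordinary linear model, and dropping dim probe sets (those that exceeded the array median on fewer than 3 arrays).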

Additional observations from a re-analysis of the deposited data

How the results depend on the processing

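Of the 10 peptide genes that passed, Grp, Nts and Vgf did so in all 14 alternatives, and 0 of the 10 changed sign. The count of higher genes (4) was 2 to 4 with 1 array left out, lowest without D6/Zbtb20S replicate 1 or wildtype replicate 2, and 0 in the ordinary linear model, where 5 were higher at an unadjusted p under 0.05. The count of lower genes (6) was 4 to 7 with 1 array left out and 3 in the ordinary linear model. More passed with array weights (5 higher, 9 lower), quantile normalization (5 and 7), probe sets averaged (5 and 6) and equal array medians (4 and 7). In that order, 14.9%, 8.55%, 8.23% and 8.32% of all genes passed in these fits. Over all genes 1402 passed, 777 to 1538 with 1 array left out, 2707 with array weights and 267 in the ordinary linear model. Over the 15 further lists 35 genes passed, and 10 in the ordinary linear model. With the replicate block, 3 peptide genes were higher and 6 lower, as Chgb (adjusted p = 0.0606) and Pcsk1 (0.056) lost their calls and Pnoc (0.0462) gained one; over all genes 1343 passed. Deviations of same-numbered arrays from their group means correlated at -0.22, 0.18 and -0.01 for replicates 1, 2 and 3. Those of differently numbered arrays correlated at -0.22 to 0.23. Whether replicate numbers pair the arrays is not given in the sources used here, and correlations among so few arrays cannot settle it. Leaving out dim probe sets kept 26 of the 35 genes, of which 9 passed, where 11.9% of all genes kept did.

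Among genes that did not pass, signs near 0 turned. With 1 array left out, the log2 difference ran from -0.0033 to 0.11 for Scg3, -0.075 to 0.11 for Pcsk1n, -0.012 to 0.13 for Tac1, -0.0485 to 0.30 for Vip, -0.057 to 0.13 for Ucn, -0.0615 to 0.0898 for Nmb, -0.031 to 0.13 for Nmu, -0.11 to 0.0004 for Oxt, -0.080 to 0.011 for Hcrt and -0.14 to 0.013 for the choroid plexus gene Kl. Pcsk1n was at -0.0071 and Nmb at -0.015 with equal array medians, and at -0.0003 and -0.039 after quantile normalization. With array weights Chga was at 0.0032, Pcsk1n at -0.045 and Ucn at -0.033. As the mean of probe sets Pomc was at 0.029 and Tac1 at -0.067, values that include the dim second probe set of each gene. The cause of these changes was not tested. The 3 pools per genotype limit what differences could pass.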
